A study of Mus musculus with 6 samples.

Results

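Acetylation of histone H3 at lysine 27 (H3K27ac) was examined at 10 genes of cell-cycle arrest and the p53 pathway in the mouse retina: Trp53, Mdm2, Cdkn1a, Cdkn2a, Cdkn2b, Ccng1, Gdf15, Sesn2, Bax and Bbc3. They are 10 of the 21938 protein-coding genes of the annotation. A promoter was taken as 2.5 kb on either side of any annotated transcription start, and a locus as the gene with 20 kb on either side. The 6 peak lists, merged, gave 39942 regions, and 39 of them lay in these loci. H3K27ac marks active promoters and enhancers. It was measured by chromatin immunoprecipitation and sequencing (ChIP-seq) of whole retina from wild-type (WT) mice that were 3 months old at the first treatment.

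The 3 retinas labelled 4xIOP came from eyes whose intraocular pressure (IOP) had been raised to 30 mmHg for 1 h, 4 times, with 2 weeks between the elevations as the study describes them. The 3 control retinas were untreated contralateral eyes, so they came from animals in which the other eye had undergone the procedure. Tissue was taken 2 days after the fourth elevation, and neither group is labelled with a drug. In 4 of the 6 samples (control replicates 1 and 2, 4xIOP replicates 1 and 2) the deposited list carries the name of the other group, and in control replicate 3 and 4xIOP replicate 3 it carries that of its label. The samples were kept as labelled, and values from the 2 lists with matching names are given beside many of the results, with no test. The comparison asked whether recurring pressure stress changes the mark in young retina.

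p53, encoded by Trp53, is a transcription factor that is kept at a low level by the ubiquitin ligase Mdm2 and accumulates after DNA damage and other stress. It binds a response element made of a pair of decamers and activates genes for arrest (Cdkn1a, Ccng1), for stress adaptation (Gdf15, Sesn2), for cell death (Bax, Bbc3) and for its own inhibitor. Cdkn2a and Cdkn2b encode inhibitors of cyclin-dependent kinases that are widely used as senescence markers, and the Arf product of Cdkn2a acts on Mdm2. Retinal neurons are postmitotic, so arrest genes in this tissue are usually read as stress or senescence genes.

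The lists held 16195 to 36509 peaks, with the lowest number in 4xIOP replicate 3 and the highest in control replicate 3. Mean background, as fragments per 10000 bp, lay between 87.4 and 173. The shortest peak was 220 to 232 bp long in control replicate 1 and 4xIOP replicates 1 and 2, and 187 to 195 bp in the other 3 lists, so the lists fell into 2 classes of fragment length. Of 8 photoreceptor markers, Nrl, Gnat1, Pde6b and Rcvrn had a marked promoter in all 6 lists. Crx was marked in all but 4xIOP replicate 1, and Arr3 and Opn1sw were marked in none. Of 8 markers of inner retinal neurons none was marked in all lists, and 1 of 5 Müller glia markers was (Glul). The 5 markers each of pigment epithelium, of microglia, and of lens and cornea were marked in no list, while 1 of 5 blood and vessel markers and 2 of 3 muscle markers were marked in some. Over all 44 markers the control lists had 10, 9 and 14 marked and the 4xIOP lists 7, 10 and 8. The part of cell composition in the results was not tested, and fewer cells with the mark and less mark per cell cannot be told apart in whole retina. Values below follow the order of replicates 1 to 3 unless stated.

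The sequences that p53 could read were located first, because they can be set against the position of the acetylated peaks. The p53 response element was searched by its consensus, with at most 2 mismatches, at most 3 bases between the 2 decamers, and C and G kept at bases 4 and 7 of each decamer. The loci held 41 matches. None was without a mismatch and 17 had 1. The 8 matches within a promoter are shown 5′ to 3′ on the strand of the gene (GRCm38 coordinates), with the central 4 bases of each decamer in capitals.
Cdkn1a, chr17:29089709-29089731, plus strand: gggCTTGgcctgaaggCACGtct
Cdkn1a, chr17:29090928-29090947, plus strand: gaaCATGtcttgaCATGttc
Cdkn2a, chr4:89279767-89279789, minus strand: agaCTTGttcctgaggCAAGttg
Ccng1, chr11:40754936-40754955, minus strand: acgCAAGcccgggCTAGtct
Ccng1, chr11:40755462-40755481, minus strand: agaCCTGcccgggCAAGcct
Gdf15, chr8:70631966-70631985, minus strand: tgaCTTGcctgaaCTTGcct
Bax, chr7:45466574-45466593, minus strand: gggCAGGcccgggCTTGtcg
Bax, chr7:45467079-45467099, minus strand: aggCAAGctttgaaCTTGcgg

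Of the 41 matches 6 lay under a peak of at least 1 list. They were the Ccng1 match 366 bp inside the gene and a pair in the neighbouring Nudcd2 promoter (6 lists each), the Bax match 252 bp inside the gene (5 lists), and, in control replicate 3 alone, the Bax match at -191 bp from the start and a match in an exon of Pgpep1 in the Gdf15 locus. The matches in the promoters of Cdkn1a and Gdf15 lay outside every peak. Among the central 300 bases of regions, 3 of 39 in the loci held a match, against 1.56% of all regions. An element of this kind was not rare: 22.8% of all 5001 bp windows around the first start of a protein-coding gene held a match, as did 4 of those 10 windows of the genes described here. In the 300 base promoter windows of RefSeq the share was 1.35%, and 3 of the 15 windows of these genes held one (1 each of Cdkn1a, Ccng1 and Bax). A match describes the sequence only, and binding of p53 was not measured.

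Promoters of 4 genes (Mdm2, Ccng1, Gdf15 and Sesn2) were marked in all 6 lists. Those of Trp53, Cdkn1a and Bax were marked in 5 lists, and in each case the list without the peak was 4xIOP replicate 2. The Bbc3 promoter was marked in control replicate 3 only, and the promoters of Cdkn2a and Cdkn2b in no list. Of the 10 promoters the control lists had 7, 7 and 8 marked, and the 4xIOP lists 7, 4 and 7. Over all protein-coding genes the control shares were 48.6, 46.2 and 56.9%, those of 4xIOP 47.4, 45.7 and 44.6%, and 39.5% of the genes were marked in all 6 lists against 4 of the 10 here. The 3 genes missing from 4xIOP replicate 2 were 3 of the 7 marked in every other list, while over all genes 263 of 8932 such promoters (2.94%) were missing from it. That list carries the control name. Its mean background was 91.5 fragments per 10000 bp. That of 4xIOP replicate 1 was 87.4 and that of control replicate 1 was 99.6, and both had the 3 peaks. Why the 3 peaks were not called in 4xIOP replicate 2 was not tested.

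**Figure D1:**
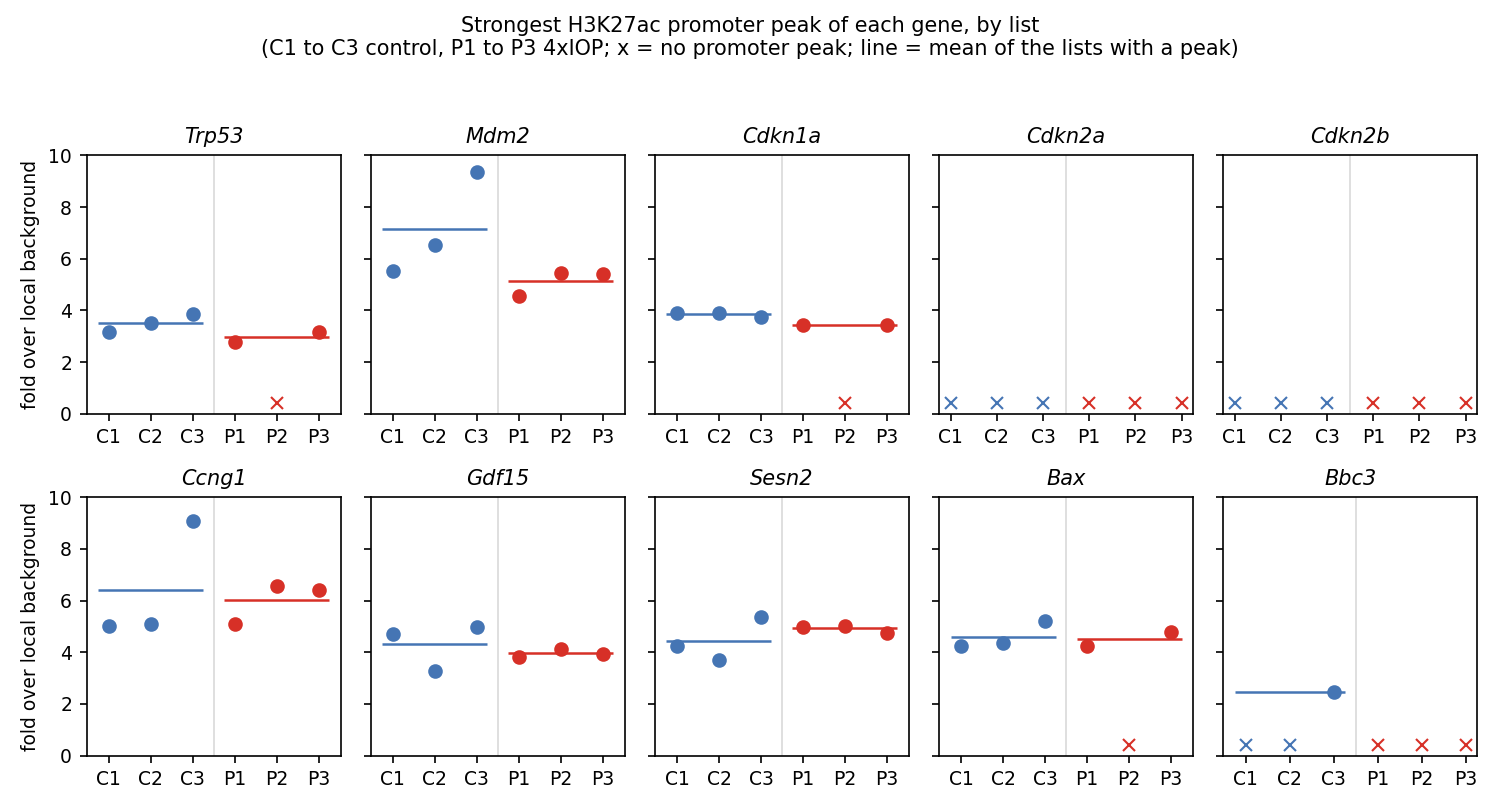
Fold over local background of the strongest promoter peak (vertical axis) of each of the 10 genes in the 6 lists, with control in blue and 4xIOP in red, a cross for a list without a promoter peak and a line for the mean of the lists with one. Mdm2 and Ccng1 reach the highest folds (9.37 and 9.06 in control replicate 3), 4xIOP replicate 2 lacks a peak at Trp53, Cdkn1a and Bax, and Cdkn2a and Cdkn2b have none.

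Trp53 shares its promoter with Wrap53, which is transcribed in the other direction, so acetylation there cannot be assigned to either gene. The strongest promoter peak lay 875 to 938 bp inside Trp53 (chr11:69581038-69581460, intron). Its fold over local background, the authors' ratio at the peak summit, was 3.17, 3.53 and 3.87 for control, and 2.80 and 3.16 for 4xIOP replicates 1 and 3. The control summits held 39, 44 and 71 fragments, against 29 and 27. All control lists were above both 4xIOP lists that had the peak, although control replicate 1 (3.17) and 4xIOP replicate 3 (3.16) were almost level. The share of all genes with such an order of folds or fragments was not computed. A weaker peak about 0.3 kb upstream (chr11:69579748-69580233) was called in all 3 control lists and in 4xIOP replicate 3, and a peak further into the intron (chr11:69581588-69581990) in the 3 control lists only. How many of all regions were called in the control lists only was not counted. When only peaks with a −log10 q of at least 5 were counted, Trp53 was marked in 3 control lists and in no 4xIOP list, as were 0.451% of all genes. The −log10 q of its strongest peak was 7.15, 9.59 and 18.6 for control and 4.07 and 4.65 for 4xIOP, so the value of 5 fell between 4.65 and 7.15. Of the 3 control lists, replicates 1 and 2 carry the pressure name.

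A region of 1021 bp just past the end of Trp53 (chr11:69592278-69593298, intergenic) had a higher fold than the promoter in each of the 5 lists with a promoter peak. It was called in all 6, at 4.29, 3.95 and 4.65 for control and 3.69, 3.75 and 4.70 for 4xIOP. Its summits held 65 to 145 fragments. The 2 groups overlapped, and 4xIOP replicate 2, which lacked the promoter peaks, had 68 fragments here. The promoter of the neighbouring Atp1b2, a sodium pump subunit, was also marked in all 6 lists (folds of 3.77 to 5.18), and that of Efnb3 in control replicates 1 and 3 only.

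Mdm2, the inhibitor, had the highest promoter fold of the 10 genes in each control list, and Ccng1 in each 4xIOP list. The Mdm2 peak covered the first exon (chr10:117709799-117710727), and the summit lay 158 to 204 bp after the start in 5 lists and 779 bp after it in 4xIOP replicate 1. Its fold was 5.52, 6.53 and 9.37 for control, against 4.55, 5.44 and 5.42 for 4xIOP (7.14 ± 1.99 and 5.14 ± 0.51, SD, n = 3). All control folds were above all 4xIOP folds, and the share of all genes with such an order of folds was not computed. By percentile within the list control replicate 1 (79.2) lay below 4xIOP replicate 2 (81.4), so that on this scale the groups overlapped. Control replicate 3 stood apart with 110 summit fragments (95% Poisson interval 90.4 to 133, counting error only) against 29 to 51 in the other 5 lists. A peak on the other side of the start (chr10:117710909-117711236) was called in 3 lists. The introns of Cpm downstream held a further region called in all 6 lists (chr10:117675873-117677063, folds of 3.67 to 5.27), and of the 8 p53 matches of the locus none lay in a peak.

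Cdkn1a encodes p21, an inhibitor of cyclin-dependent kinases and a standard target of p53. The gene has 4 annotated starts spread over 6.92 kb. Acetylation was found in 1 place, an intron of the transcripts from the first starts (chr17:29094318-29095455), with summits 688 to 1355 bp after the nearest start. The non-coding gene AC167363.2 starts within the same window. No peak lay over the most upstream start, where the closest p53 match of the locus is found. That match ends 3.37 kb short of the acetylated region and lies at -42 bp from the first start and at -2.83 kb from the second. The 250 bases before the first start (GRCm38.p6, chr17:29090729-29090978, plus strand, RefSeq) hold it in capitals.
Cdkn1a upstream start: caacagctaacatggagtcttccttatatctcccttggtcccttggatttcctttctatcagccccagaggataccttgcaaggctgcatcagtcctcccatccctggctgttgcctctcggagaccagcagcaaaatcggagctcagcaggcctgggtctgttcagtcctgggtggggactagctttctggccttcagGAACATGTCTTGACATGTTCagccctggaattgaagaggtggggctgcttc

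For contrast, the 200 bases at the median summit of the acetylated region (chr17:29094790-29094989, plus strand) are shown with each CpG in capitals. They held no p53 match, 20 CpG and 71.5% G and C, against 2 CpG and 54.0% in the upstream window. Some of these bases lay under a peak in 5 lists, and the whole stretch did so in 2 lists.
Cdkn1a acetylated region: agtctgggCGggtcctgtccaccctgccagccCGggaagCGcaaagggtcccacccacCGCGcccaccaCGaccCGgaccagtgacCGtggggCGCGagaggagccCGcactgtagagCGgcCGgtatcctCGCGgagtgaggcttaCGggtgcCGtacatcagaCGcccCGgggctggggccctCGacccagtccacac

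The Cdkn1a peak stood between the 21.6th and the 51.3rd percentile of fold in the lists that had it. Its fold was 3.92, 3.90 and 3.74 for control and 3.45 and 3.44 for 4xIOP replicates 1 and 3, with no peak in 4xIOP replicate 2. The control summits held 18, 23 and 22 fragments, and both 4xIOP summits 15. All control values were above all 4xIOP values, and the share of all genes with such an order was not computed. The 95% Poisson interval of 15 fragments runs from 8.40 to 24.7 and so includes every control count. Divided by the mean background of the list, the control summits were 8.21, 6.80 and 8.91 times it and the 4xIOP summits 7.46 and 5.85 times it, and on this scale the groups overlapped. Only 2 lists kept the peak at a −log10 q of at least 5 (control replicates 2 and 3). Within 20 kb, 2 further regions were called in 1 list each, 1 of them near the start of Trp53cor1, a non-coding p53 target, in control replicate 3.

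Cdkn2a, which encodes p16Ink4a and p19Arf, and its neighbour Cdkn2b, which encodes p15Ink4b, had no peak within 20 kb of either gene in any of the 6 lists. Of all protein-coding promoters 42.4% were marked in no list. The lists give only peaks that passed the caller, so acetylation too weak to be called, or limited to few cells, was not detectable.

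Ccng1, the cyclin G1 gene, was marked in all 6 lists by a peak over its first exon (chr11:40754450-40755308) with summits 187 to 285 bp after the start. Control folds were 5.02, 5.11 and 9.06, and 4xIOP folds 5.07, 6.58 and 6.40 (6.40 ± 2.31 and 6.02 ± 0.82, SD, n = 3). The groups overlapped, and control replicate 3 was the highest. A peak upstream of the start was called in control replicates 1 and 3 only. The p53 match at -160 bp from the start lay in the gap between these peaks, 14 bp from the nearest region, and the match inside the gene lay under the main peak in all 6 lists. The only other region of the locus was the shared promoter of Nudcd2 and Hmmr, marked in all 6 lists.

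**Figure D2:**
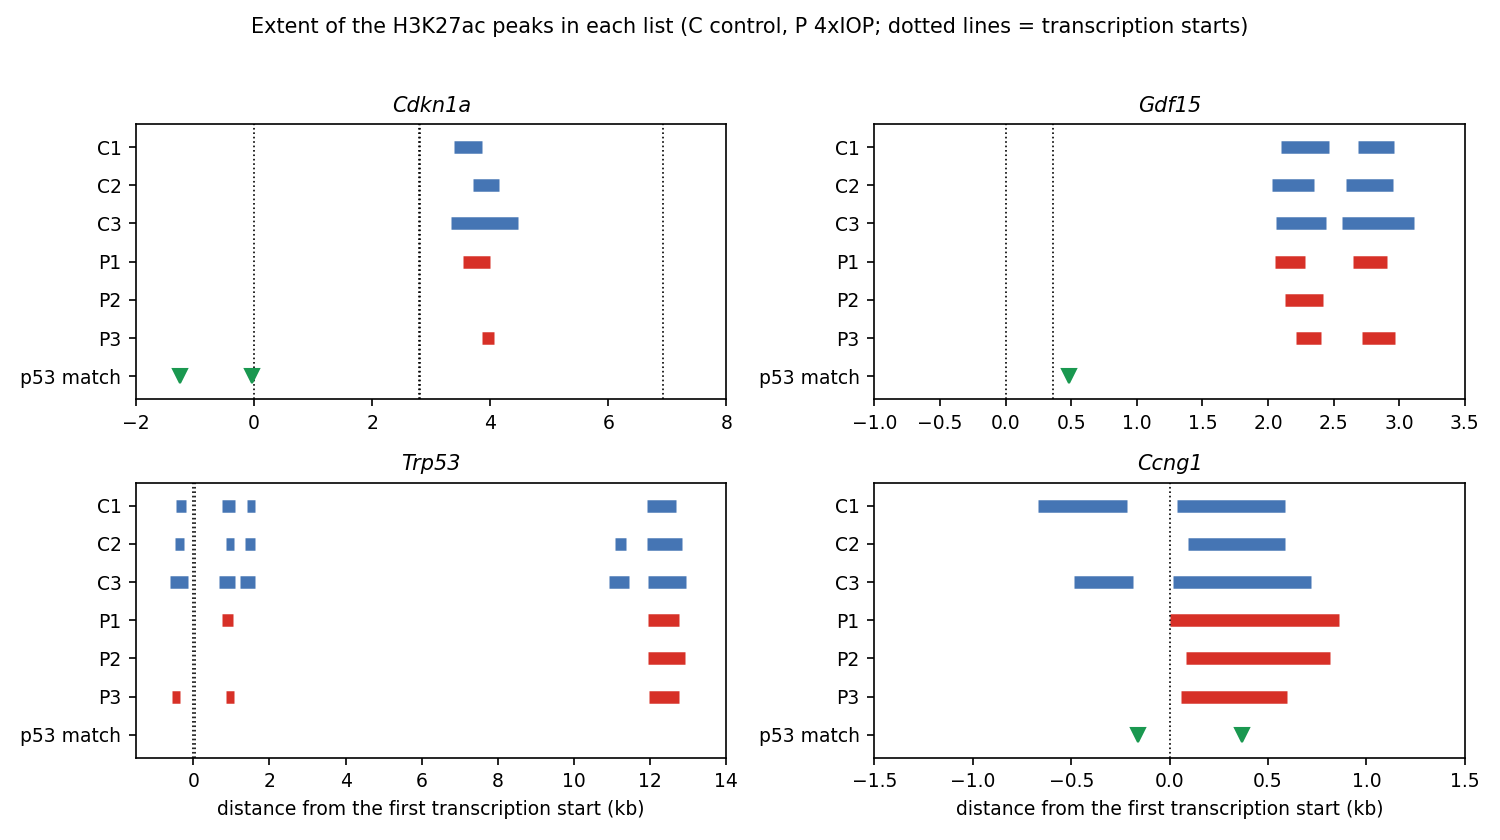
Extent of the H3K27ac peaks (bars) in each list, C1 to C3 for control in blue and P1 to P3 for 4xIOP in red, against the distance from the first transcription start in kb, with dotted lines at annotated starts and triangles at p53 matches. In the range shown the peaks of Cdkn1a and Gdf15 lie inside the gene and away from the matches, Trp53 has a region near 12.2 kb in all 6 lists, and 1 of the 2 Ccng1 matches lies under a peak.

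Gdf15 encodes a secreted cytokine of the TGF-beta superfamily that is induced by mitochondrial and other cell stress. All peaks of its promoter window lay towards the end of this short gene, with the strongest summit 1903 to 2463 bp after the nearest start, and none overlapped a start. The region nearer the starts (chr8:70629993-70630426) was called in all 6 lists, and a second one (chr8:70629340-70629890) in all but 4xIOP replicate 2. Both overlap an exon of Gdf15. With promoters of 1 kb on either side, Gdf15 was marked in 0 of the 6 lists. The fold of the strongest peak was 4.70, 3.28 and 4.97 for control and 3.82, 4.13 and 3.94 for 4xIOP (4.32 ± 0.91 and 3.96 ± 0.16, SD, n = 3). The 4xIOP values lay inside the control range, whose lowest value was that of control replicate 2. In 4xIOP replicates 1 and 3 the strongest peak was the second region, and the first had 2.82 and 3.81 there. Upstream, 2 regions in exons of Pgpep1 were called, 1 of them in all 6 lists with folds of 3.02 to 4.40. The region at the start of Ssbp4 and Gm45546 was called in control replicate 3 and 4xIOP replicates 1 and 2.

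Sesn2 encodes a sestrin, which restrains mTORC1 and takes part in the response to oxidative stress and nutrient shortage. Its promoter peak (chr4:132509369-132510457, shared with Gm12981) had summits 180 to 384 bp after the start. Its folds were 4.23, 3.71 and 5.37 for control, against 5.00, 5.01 and 4.76 for 4xIOP (4.44 ± 0.85 and 4.92 ± 0.14, SD, n = 3), so the control range enclosed the 4xIOP values. Upstream lay a merged region called in all 6 lists (chr4:132515025-132516214, intergenic), which held 2 separate peaks. Only control replicate 3 had 1 peak across both, so its fold of 6.27 (49 summit fragments) belongs to the merged peak, with its summit in the farther one. At the farther peak (chr4:132515665-132516214) control replicates 1 and 2 had folds of 6.51 and 4.80, 4xIOP replicates 1 and 2 had 3.91 and 3.97, and 4xIOP replicate 3 had no peak. At the nearer peak (chr4:132515100-132515507) control replicates 1 and 2 had 3.53 and 3.36, and the 4xIOP lists 3.58, 4.21 and 3.69. In the lists where each was called, the farther peak had its lower folds in 4xIOP and the nearer one its lower folds in control. Each list with a separate farther peak carries the name of the other group, so by those names that order would reverse. By the names the groups would overlap at the nearer peak. In the lists with matching names, control replicate 3 had the merged peak and 4xIOP replicate 3 no farther peak. The share of all peaks with such an order was not computed, and neither peak was tested by itself. The 200 bases at the median summit of the farther peak (chr4:132515769-132515968, minus strand, CpG in capitals), under a peak in 5 lists, held 1 CpG, 43.5% G and C and no p53 match.
Sesn2 farther upstream peak: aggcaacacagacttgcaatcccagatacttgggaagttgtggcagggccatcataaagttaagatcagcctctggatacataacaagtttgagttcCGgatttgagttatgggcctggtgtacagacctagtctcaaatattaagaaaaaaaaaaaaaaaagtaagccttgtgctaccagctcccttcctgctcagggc

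Lists differ in their overall folds, so the groups were tested on scores. The score of a region or promoter is its rank by fold among those found in all 6 lists, turned into a normal score within each list, and a difference is 4xIOP minus control on that scale. The Sesn2 promoter scores were -0.91, -1.17 and -0.91 for control and -0.25, -0.09 and -0.39 for 4xIOP, a difference of 0.75 ± 0.36 (SE, limma adjusted p = 0.99957). Ranked among regions in place of promoters, the same peak differed by 0.61 ± 0.29 and the merged upstream region by -0.89 ± 0.33 (limma adjusted p = 0.999894 for both). The score of a merged region is that of its strongest peak, which was the farther one in the control lists and 4xIOP replicate 1 and the nearer one in 4xIOP replicates 2 and 3, so the upstream difference compares 2 different peaks in part. The shared Mdm2 promoter region also held a pair of peaks in 4xIOP replicate 2, and the summit of its strongest peak lay 779 bp past the start in 4xIOP replicate 1 and 158 to 204 bp past it in the other lists. No difference passed the adjustment. The unadjusted p was under 0.05 among promoters and for the upstream region. It stayed so for the promoter on leaving out 4xIOP replicate 3 but not any other list, and for the upstream region on leaving out any list but control replicate 1, when the difference was -0.62. On log2 folds without ranking, the promoter differed by 0.17. With the class of fragment length in the fit, the differences were 0.69 at the promoter and -1.08 upstream. In the pair of lists whose own names match their labels, the differences were 0.53 at the promoter and -0.74 upstream. The promoter fold of that pair went the other way, at 5.37 in control replicate 3 and 4.76 in 4xIOP replicate 3. So did its percentile within the list (72.9 against 61.3).

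**Figure D3:**
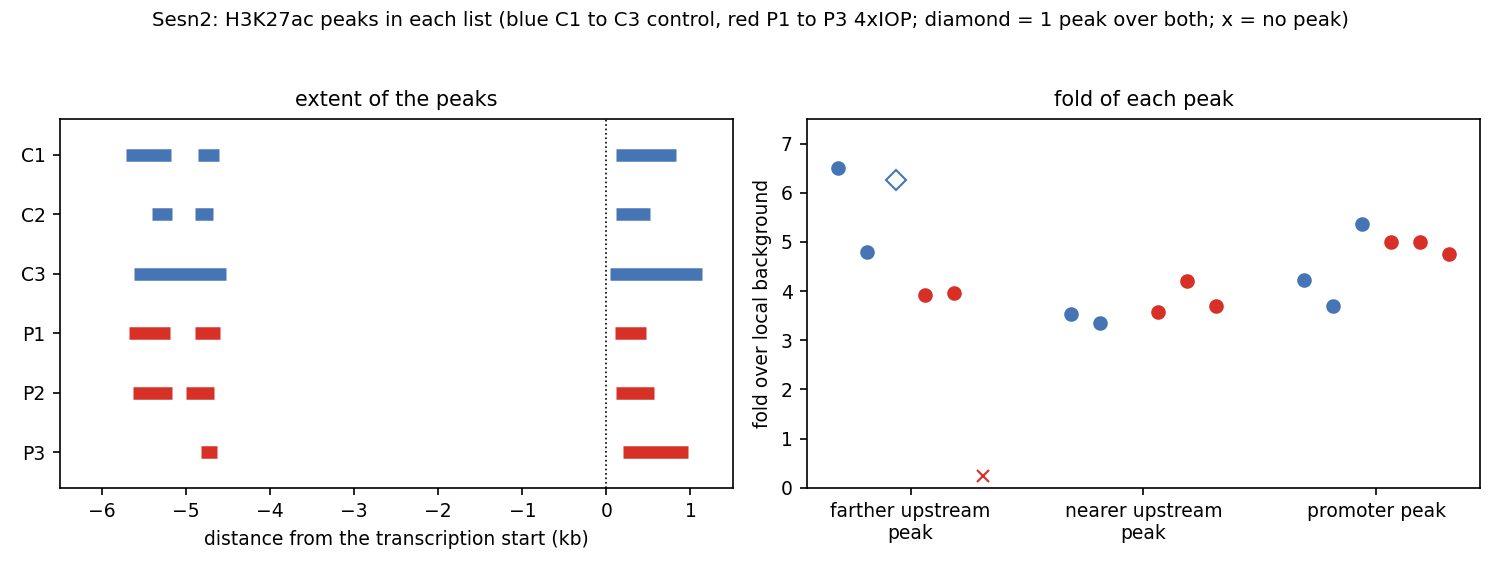
Extent of the Sesn2 peaks in each list against the distance from the transcription start in kb (left) and fold over local background of each peak (right), for C1 to C3 (control, blue) and P1 to P3 (4xIOP, red). The diamond is the single peak of control replicate 3 over both upstream peaks and the cross a list without a peak. The farther upstream peak reaches 6.51 in control and 3.97 in 4xIOP, while the nearer peak reaches 3.53 in control replicates 1 and 2 and 4.21 in 4xIOP. All of these values come from lists that carry the name of the other group.

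Bax encodes a pore-forming effector of apoptosis. Its promoter peak (chr7:45466240-45466809, intron of Bax and of the overlapping Gm45808) had folds of 4.23, 4.36 and 5.19 for control and of 4.25 and 4.77 for 4xIOP replicates 1 and 3, with no peak in 4xIOP replicate 2. Apart from that list the groups overlapped. Control replicate 3 had a second peak upstream of the start. The region of the locus called in all 6 lists was the promoter of the neighbour Ftl1, the ferritin light chain (chr7:45459025-45459914), with folds of 4.09 to 4.58 in control and 4.41 to 5.35 in 4xIOP. It lies in the window of Gm10252 and Gm22133 too, and Gm10252 overlaps Ftl1, so reads may be shared.

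Bbc3 encodes PUMA, which activates Bax. Its annotated promoter was marked in control replicate 3 alone, by 2 weak peaks with folds of 2.43 and 2.45. A region within an intron, 4.26 kb after the start (chr7:16313592-16314636), was called in all 6 lists, at 5.18, 4.03 and 5.71 for control and 4.93, 4.05 and 4.46 for 4xIOP. The groups overlapped. The region lies beside the start of a retained-intron transcript (16313517) that is not in the basic annotation. When starts of the comprehensive annotation were used, an alternative chosen after seeing the data, Bbc3 counted as marked in 6 lists in place of 1. The locus held 8 regions, the most of the 10, with 4 of them between -14.4 and -9.56 kb from the start and 1 in an intron of Sae1 called in all lists (folds of 5.25 to 6.84).

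Across the 8669 promoters marked in all 6 lists, limma with Benjamini-Hochberg adjustment called none at an adjusted p under 0.05, higher or lower (0%), and 270 had an unadjusted p under 0.05 (3.11%). The 4 genes of the set that entered this fit were not called. Mdm2 differed by -0.70 ± 0.39 (SE), Ccng1 by 0.33 ± 0.41, Gdf15 by 0.08 ± 0.38 and Sesn2 by 0.75 ± 0.36, all with an adjusted p of 0.99957. Of these only Sesn2 had an unadjusted p under 0.05. With 1 list left out the Mdm2 difference was lowest at -1.002, when control replicate 1 was dropped (its unadjusted p was then under 0.05), and nearest to 0 at -0.45, when 4xIOP replicate 1 was dropped. Ccng1 was 0.094 without control replicate 1, 0.14 without 4xIOP replicate 2, 0.18 without 4xIOP replicate 3, 0.64 without control replicate 3 and 0.68 without 4xIOP replicate 1. For Gdf15 the lowest value was -0.19, on dropping control replicate 2, and the highest 0.35, on dropping control replicate 1. Its promoter score also compares different peaks in part, and the Gdf15 promoter region at chr8:70629993-70630426, called in all 6 lists, differed by -0.29 ± 0.36 (SE, limma adjusted p = 0.999894) and by -0.12 between the lists with matching names. Between the lists with matching names Mdm2 differed by -0.80, Ccng1 by 0.016 and Gdf15 by 0.0095. Across the 10529 regions called in all lists none was called either (0%), and 334 had an unadjusted p under 0.05 (3.17%). Of the 13 regions of the loci in this fit 1, the Sesn2 upstream region, was among them. The median difference of the 13 was -0.01, against 0.005 over all regions, and 6 of the 13 were above 0, as were 6 of the 13 between the lists with matching names (51.0% of all regions). The fit has 3 retinas per group, and nothing in the labels says which animals they came from, so the p-values measure only the spread between these samples.

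Groups that do not overlap were counted as a description. On the score scale all 4xIOP lists exceeded all control lists at the Sesn2 promoter (4.25% of all promoters did so) and at no promoter of the set was it the reverse (3.93% of all). Of the 13 locus regions, 2 had all control lists above (the merged Sesn2 upstream region and the Cpm intron, background 4.05%) and 2 had all 4xIOP lists above (Sesn2 promoter and Ftl1, background 4.31%). In the lists with matching names the region scores of these 4 differed by -0.74, -0.36, 0.41 and 0.79. When a list without a peak was counted as the lowest, the fold percentile within the list was higher in all control lists at Trp53 and Cdkn1a, 2 of the 8 genes marked in at least 1 list, as at 10.1% of all such genes. In the lists with matching names the percentile was 47.1 against 13.5 at Trp53 and 42.8 against 21.6 at Cdkn1a. It was higher in all 4xIOP lists at none of the 8 (0.309% of all). No gene of the set was marked in all lists of 1 group and in none of the other, against 0.360% of all genes (79) for control and 0% for 4xIOP. Without control replicate 3 these background counts were 82 and 36, and with equal numbers of top peaks 29 and 10.

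The fragments at the summit, divided by the mean background of the list, were on average higher in control at all 7 genes with a promoter peak in both groups, as they were at 93.8% of the 11017 genes with such peaks. Examples are 19.9 ± 8.07 against 12.5 ± 2.76 times the background at Trp53 (SD, n = 3 and 2) and 13.5 ± 7.08 against 13.3 ± 3.41 at Sesn2. Without control replicate 3, the list with the most peaks, the count was 4 of the 7 and the share of all genes 33.8%. By percentile of fold within the list, control was higher at 5 of the 7 (76.5% of all), the exceptions being Ccng1 (81.3 against 84.4) and Sesn2 (57.2 against 69.0). In the lists with matching names it was higher at 7 of the 7 on both measures (98.96 and 85.1% of all).

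The 39 regions of the loci comprised 15 at promoters of the genes themselves, 8 at promoters of neighbours and 16 that were distal. Of these, 13 were called in all 6 lists (33.3%, against 26.4% of all regions) and 10 in a single list (25.6%, against 37.4% of all regions), 8 of them in control replicate 3, which held 11412 of the 14954 such regions over the genome. The control lists called 25, 23 and 37 of the 39, and the 4xIOP lists 22, 16 and 22. Of all regions the control lists called 50.1, 44.8 and 89.1%, and the 4xIOP lists 46.6, 47.9 and 36.4%. At the promoters of the genes themselves control had 12, 10 and 15 and 4xIOP 9, 4 and 9, while at distal regions control had 8, 10 and 15 and 4xIOP 9, 8 and 9. The low number of 4xIOP replicate 2 was at the promoters (4 of 15), and at distal regions (8 of 16) it equalled control replicate 1. Over all 39942 regions 4xIOP replicate 2 called 58.7% of those at a promoter and 36.1% of the others. The corresponding shares were 64.7 and 34.3% in control replicate 1, 61.6 and 30.4% in 4xIOP replicate 1, 59.9 and 28.4% in control replicate 2, 53.7 and 17.6% in 4xIOP replicate 3, and 95.1 and 82.6% in control replicate 3, so that at promoters 4xIOP replicate 3 was the lowest of the 6 lists.

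**Figure D4:**
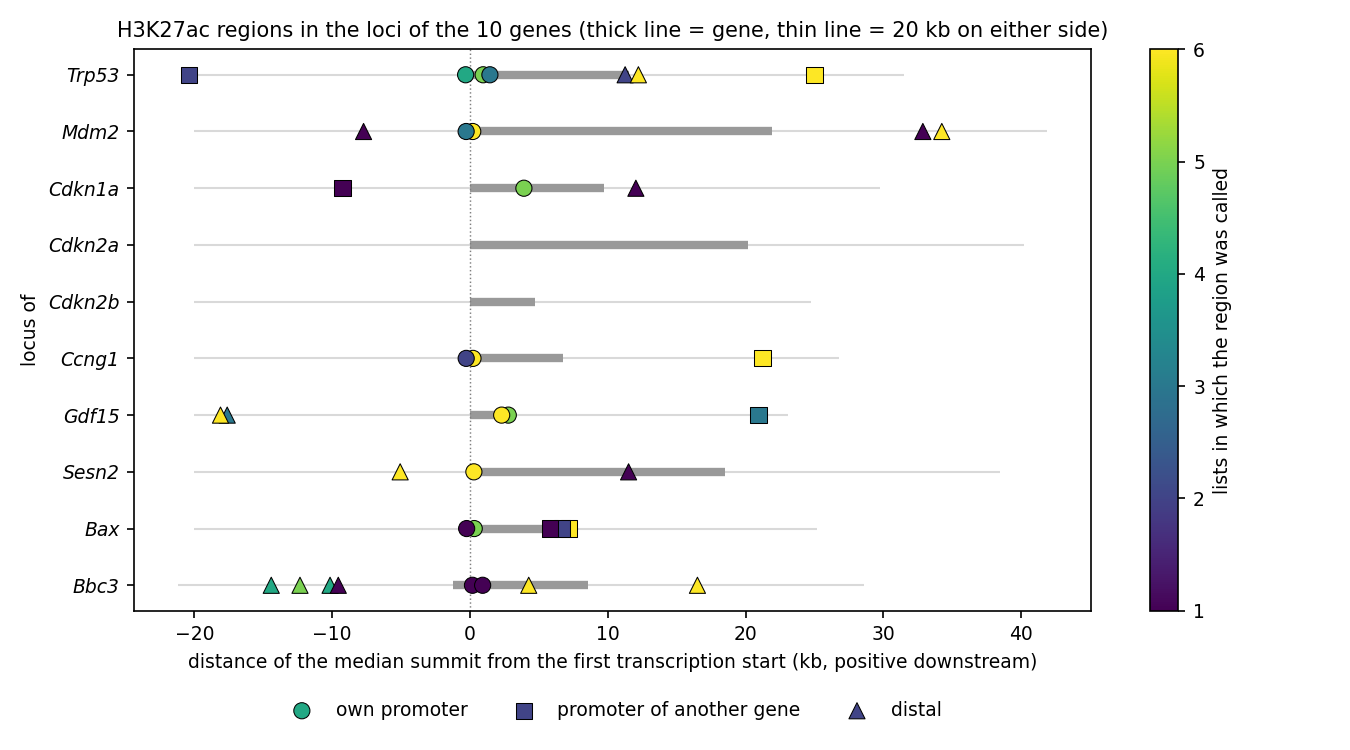
Position of the 39 H3K27ac regions in the loci of the 10 genes, as the distance of the median summit from the first transcription start (kb), with the shape for the kind of region and the colour for the number of lists in which it was called. Regions called in all 6 lists include the Trp53, Mdm2, Sesn2 and Bbc3 distal regions, and the loci of Cdkn2a and Cdkn2b are empty.

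The 15 RefSeq promoter windows (250 bases before to 50 after a start, GRCm38.p6) of the 10 genes differed in base composition as well as in the mark. The window of the first Cdkn1a start had 54.7% G and C and an observed over expected CpG ratio of 0.0892, at the 11.8th percentile of 32851 windows, and that of the second start 64.7% and 0.786 (77.9th percentile). The 2 Gdf15 windows had ratios of 0.300 and 0.0418, while Mdm2 had 1.12 (98.6th percentile). Cdkn2a (up to 1.04) and Bbc3 (0.746 to 0.915) also had CpG-rich windows, with no promoter peak at Cdkn2a and, at the annotated Bbc3 promoter, peaks in control replicate 3 alone. The sequence GGGCGG or its complement was in 10 of the 15 windows (35.7% of all windows), CCAAT in 7 (37.4%), TATAAA in 1 (13.6%) and TGACGTCA in 1 (1.79%).

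A wider list of p53 regulators and targets was described by counts. Of 69 genes in the annotation, 45 had a marked promoter in all 6 lists, 12 in some and 12 in none, with 48, 48 and 57 in the control lists and 48, 47 and 45 in the 4xIOP lists. Regulators (16 of 17), arrest and feedback targets (12 of 13) and DNA repair targets (8 of 8) were mostly marked in all lists, the exception among regulators being Trp63, marked in none. Of the death targets 3 of 12 were marked in all lists and 7 in none, against 39.5 and 42.4% of all genes. The 7 were Pmaip1, Fas, Tnfrsf10b, Pidd1, Eda2r, Dram1 and Trp53i11. Among other cyclin-dependent kinase inhibitors and the Rb pathway 6 of 17 were marked in all lists and 3 (Cdkn1c, Ccnd1 and Ccnd2) in none, Rbl2 and Ccnd3 lacked a peak only in 4xIOP replicate 3, and Cdk6 and Ccne2, named after their values were seen, were marked in 2 control lists and in no 4xIOP list. Over all genes 403 of the 9072 promoters marked in the other 5 lists lacked a peak in 4xIOP replicate 3 (4.44%), and 279 promoters (1.27%) were marked in 2 control lists and no 4xIOP list. Gfral, the GDF15 receptor, was unmarked. None of the 45 genes in the fit was called. The median difference was 0.03, against 0.005 over all promoters, 23 of the 45 were above 0 (28 of the 45 between the lists with matching names, against 51.8% of all promoters), and 1 had an unadjusted p under 0.05. This was Trp53bp1, a DNA damage sensor named after its value was seen, with a difference of 0.83 ± 0.40 (SE, limma adjusted p = 0.99957). Between the lists with matching names its score differed by 0.74, while its fold, not ranked, was 7.93 in control replicate 3 and 6.81 in 4xIOP replicate 3.

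**Figure D5:**
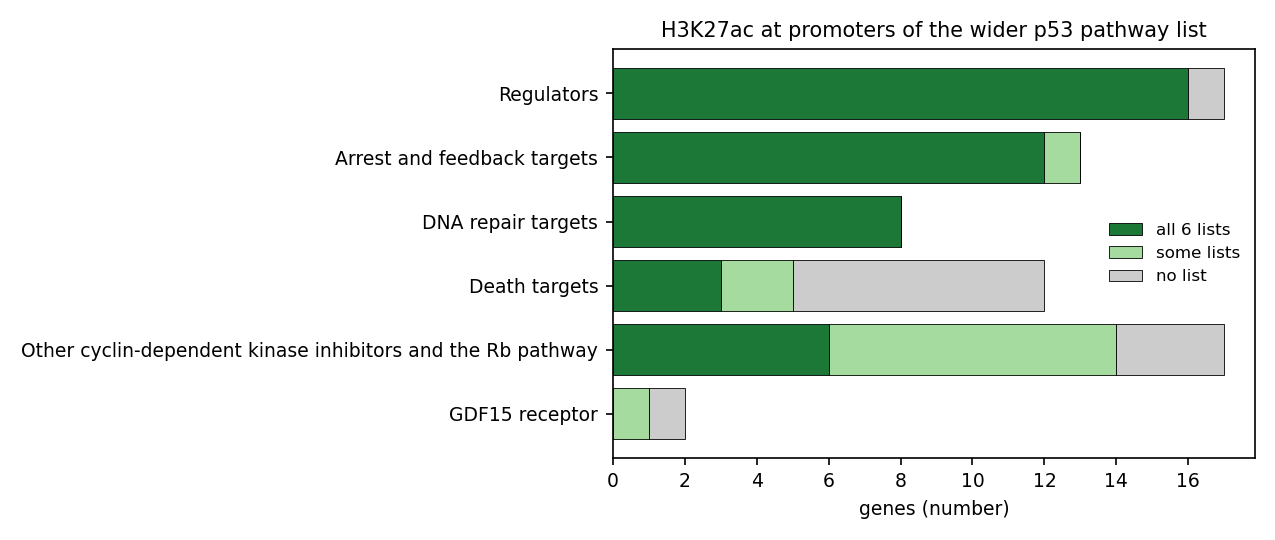
Number of genes (horizontal axis) in each group of the wider p53 pathway list whose promoter was marked in all 6 lists (dark green), in some (light green) or in none (grey). Regulators and repair targets are almost all dark, 16 of 17 and 8 of 8, and 7 of 12 death targets are grey.

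The promoters whose scores over the 6 lists were most like those of Gdf15 were Patj (Pearson r = 0.987), Azin2 (0.985) and Whrn (0.979), among 8668 compared, of which 56 were above 0.9. The correlations are over 6 lists of unequal depth, 4 of which carry a name against their label, and are a description only. Cdkn1a was not marked in all 6 lists, and no such pattern was computed for it.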

How the data were processed

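H3K27ac ChIP-seq of whole retina was represented by 1 deposited peak list per sample (3 control, 3 4xIOP, grouped by the labels). The authors called peaks for each sample alone. Each deposited peak has a fold (the ratio of the pile-up to a local background), a −log10 p-value and a −log10 q-value of the authors' caller, and an integer score that was not used. The submitters' notes name STAR 2.7.8a, MACS2, HOMER, edgeR, bedtools 2.29.2 and mm10 without their roles, and the caller's settings are not given in the sources used here. Coordinates are 1-based GRCm38, with 0 peaks past a chromosome end. Genes and starts are from GENCODE vM21 (basic), and sequences from RefSeq GRCm38.p6, which holds windows for all 10 genes.

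Only the autosomes and the X and Y chromosomes were kept. Overlapping peaks of the 6 lists were merged into regions, and at least 1 bp of overlap counted as marked. Fold and p together gave the whole number of fragments at each summit, which returned the deposited p within 0.001 for 100% of peaks. Mean background is the smallest background recovered in a list. Intervals cover counting error only. Normal scores of fold ranks within each list were fitted with limma 3.58.1 (R 4.3.3) over all promoters or regions found in the 6 lists, with Benjamini-Hochberg adjustment at 0.05. The fit was first run on simulated data with added changes. How often it would call differences of the size seen here is not given, so a lack of calls does not show a lack of change. Python 3.11.15 was used otherwise.

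Genes named are the 10 genes, neighbours whose start lies in a peak of a locus, genes of the wider list marked in no list, or in all lists of 1 group and fewer of the other, and the 3 promoters most like Gdf15. Genes that hold a region of a locus (Cpm, Pgpep1, Sae1) are named to give its place, and Cdk6, Ccne2 and Trp53bp1 were chosen after their values were seen. The genes, lists and alternatives were chosen with earlier results of these data known. The value of 1 marker gene is not reported here.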

Additional observations from a re-analysis of the deposited data

How the results depend on the processing

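No region or promoter was called under any of the 12 and 14 alternatives run (ranks of fragments, unranked log2 fold, a −log10 q of at least 5, 16195 top peaks per list, the fragment-length class as a term, the replicate block, each list left out, and, for promoters, 1 kb promoters and all annotated genes). The numbers with an unadjusted p under 0.05 ranged from 252 to 702 regions and from 179 to 479 promoters, both highest without 4xIOP replicate 3. Mdm2 and Sesn2 kept their signs throughout. On the score scale Sesn2 ranged from 0.64 to 0.81 at the promoter (0.53 in the lists with matching names) and from -1.08 to -0.62 in the merged upstream region, where a −log10 q of at least 5 gave no value. On unranked log2 fold, another unit, they were 0.17 and -0.56. Ccng1 reversed on unranked log2 fold (-0.041). Gdf15, which lay near 0, reversed to -0.086 (fragments), -0.10 (log2 fold), -0.082 (fragment-length class), -0.19 (without control replicate 2) and -0.044 (without 4xIOP replicate 2), and ranged up to 0.35 (without control replicate 1). Genes of the set marked in all lists were 4 to 7 with 1 list left out, highest without 4xIOP replicate 2, and 7 in the 2 lists with matching names (chosen after seeing the data). The loci held 24 regions with 5 kb flanks and 30 with a −log10 q of at least 5. In each case 8 were called in all lists, against 13 of 39 in the main setting. Promoters marked in all control lists only (79) were 29 with equal numbers of top peaks and 82 to 277 with 1 list left out, and those marked in all 4xIOP lists only (0) were 10 and 0 to 36, highest without control replicate 3. The count of genes with more fragments in control was 4 to 7 with 1 list left out, 4 without control replicate 3 (chosen after seeing the data). The causes were not tested.

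Replicate numbers are shared between the groups, and the labels do not say that they mark the same animal. As pairs are not labelled, the numbers were not taken as pairs. Over the shared regions the deviations of same-numbered samples correlated at -0.02, -0.06 and -0.15, and those of other combinations at -0.16 to 0.18. Each deviation is from the mean of its own group, which ties these values to each other, so they cannot show whether samples are pairs. With the replicate block 0 regions and 0 promoters were called, 289 and 237 had an unadjusted p under 0.05, and the unadjusted p stayed under 0.05 for the Sesn2 upstream region and not for its promoter.

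The lists hold only called peaks. The Cdkn1a summits held 15 to 23 fragments, and the 95% Poisson interval of 15 fragments (8.40 to 24.7) covers that range. Whether counting error accounts for the difference between its groups was not tested. Absence of a peak sets no upper limit on the mark.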
